A study of Arabidopsis thaliana with 10 samples.

Results

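G2/M, mitosis and cytokinesis genes are those whose products carry a cell from the end of DNA replication through chromosome segregation to the new cell wall between the daughter cells. They were taken as 36 listed loci of *Arabidopsis thaliana*, and all 36 were found among the 33851 genes of the deposited table. All 36 also carried a number from the k-means clustering made by the authors, as did 25883 of the 33851 genes (76.5%).

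The clustering rests on mRNA-Seq of SAM-enriched tissue (the shoot apical meristem with young leaf primordia) from seedlings of 5 genotypes, 8 and 15 days old, with 1 library for each of the 10 combinations. The genotypes were *jba-1D/+ er-20 clv3-2*, *jba-1D/+ er-20*, *jba-1D/+*, *clv3-2* and Col-0 wild type. *jba-1D* is a dominant allele that raises miR166g and was heterozygous wherever it was present, *er-20* is an allele of the receptor kinase gene *ERECTA* and was present only together with *jba-1D/+*, and *clv3-2* is an allele of the stem cell peptide gene *CLAVATA3*. Each library was made from a pool of meristems of seedlings grown on MS plates in long days, so cells and primordia were mixed within a sample, and fewer cells of a type and less RNA per cell cannot be told apart. The headings of the value columns matched no sample label, so levels by genotype or age were not analysed here, and the values below are shared cluster numbers, annotation and sequence. Genes of the same cluster were grouped by the authors for similar profiles over the 10 libraries. How alike the profiles within a cluster were was not checked here, and the number itself gives no level and no direction.

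Entry into mitosis in plants depends on B-type cyclin-dependent kinases bound to A- and B-type cyclins, and many of the genes needed for it are transcribed together in G2 and M phase. MYB3R transcription factors bind the M-phase specific activator (MSA) element, whose core is AACGG, in the promoters of such genes. In shoot meristems division is scattered, with each cell passing through these stages at its own time, and division ends with a phragmoplast, an array of microtubules that guides vesicles to the growing cell plate.

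Promoter stretches are shown first for members that shared a cluster and carried the MSA core, since these are the genes on which the results turn. Each stretch is 60 bases of the TAIR10.1 reference assembly from the bases before the annotated start of the gene, written 5′ to 3′ along the strand of the gene, with AACGG or its reverse complement CCGTT in capitals. The stretch with most cores was taken for each gene. *MYB3R4*, in cluster 564, also carried a core, but its window of 250 bases overlaps the neighbouring gene AT5G11500, and its stretch is not shown. In cluster 564 the stretches shown belong to a pair of B-type cyclins, *KNOLLE* (*KN*) and *HINKEL* (*HIK*), and lie, in the order of the lines, at chr4:17624314-17624373 (- strand), chr5:1861728-1861787 (- strand), chr1:2711001-2711060 (- strand) and chr1:6324379-6324438 (- strand).
CYCB1;1: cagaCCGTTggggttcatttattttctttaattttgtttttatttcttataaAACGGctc
CYCB1;2: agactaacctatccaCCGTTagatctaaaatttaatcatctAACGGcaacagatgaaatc
KN: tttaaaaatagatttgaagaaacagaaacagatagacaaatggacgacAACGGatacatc
HIK: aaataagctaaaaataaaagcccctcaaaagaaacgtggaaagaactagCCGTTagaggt
An A-type and a B-type cyclin of cluster 51 follow, at chr1:16777514-16777573 (- strand) and chr3:3627293-3627352 (- strand), and then a B-type cyclin and *TPX2* of cluster 821, at chr4:16901420-16901479 (+ strand) and chr1:951884-951943 (- strand).
CYCA1;1: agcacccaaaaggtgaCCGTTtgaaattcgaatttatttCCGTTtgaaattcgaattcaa
CYCB1;3: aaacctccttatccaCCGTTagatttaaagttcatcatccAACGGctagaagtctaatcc
CYCB2;2: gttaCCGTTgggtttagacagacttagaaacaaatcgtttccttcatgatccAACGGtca
TPX2: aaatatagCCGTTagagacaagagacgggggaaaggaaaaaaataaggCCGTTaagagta
For comparison, members that were alone in their clusters and had a pair of cores close together were a further pair of B-type cyclins, at chr2:7663957-7664016 (+ strand) and chr1:7137853-7137912 (- strand), and *MAP65-3*, at chr5:20964618-20964677 (- strand).
CYCB2;1: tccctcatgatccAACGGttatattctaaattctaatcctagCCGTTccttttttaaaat
CYCB2;3: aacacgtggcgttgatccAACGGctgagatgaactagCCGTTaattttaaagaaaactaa
MAP65-3: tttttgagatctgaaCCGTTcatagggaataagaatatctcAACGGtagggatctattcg
A stretch shows only some of the cores of a gene, so order and spacing were read over the whole 250 bases. *CYCB2;1*, *CYCB2;2* and *CYCB2;3*, each in a different cluster, had 3 cores in the same order of reverse, forward and reverse. From the first to the second core there were 47, 43 and 43 bases, and from the second to the third 24, 17 and 14 bases. The same order ended the windows of *CYCB1;2* and *CYCB1;3*, also in different clusters, with 21 and 27 bases between the cores in cluster 564 and 20 and 29 bases in cluster 51. *MAP65-3* had a reverse and a forward core 21 bases apart, and *CYCB1;1* had such a pair 43 bases apart, after a further reverse core. The pairs of *CYCA1;1* and *TPX2* were both in the reverse direction, with 18 and 35 bases between the cores. These CYCB1 and CYCB2 paralogs in different clusters thus had the same order of cores, whereas *CYCB1;4* and *CYCB2;4* of the same families had no core. Members of the same cluster could differ in arrangement.

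The 36 members fell into 26 of the clusters. Of these, 3 held more than 1 member, with 7 members among the 45 genes of cluster 564, 4 among the 16 genes of cluster 821 and 2 among the 29 genes of cluster 51. The other 23 members were each the only member of their cluster. Among the 630 pairs of members, 28 pairs (4.44%) shared a cluster, against 0.226% of all pairs of clustered genes. The clusters of members were not larger than others, with a median of 31 genes for a member and of 33 genes for any clustered gene. Of the 28 pairs, 22 joined genes of different roles and 6 joined genes of the same role. Most possible pairs of members join different roles, so these counts do not compare how often each kind shared a cluster. Within roles, 4 of 36 pairs of B-type cyclins shared a cluster. So did 1 of 6 pairs of cytokinesis genes and 1 of 21 pairs of spindle, kinetochore and Aurora genes, and no pair within the other roles. With this many clusters, genes in different clusters may still have similar profiles, so a separate number does not show that profiles differed.

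**Figure D1:**
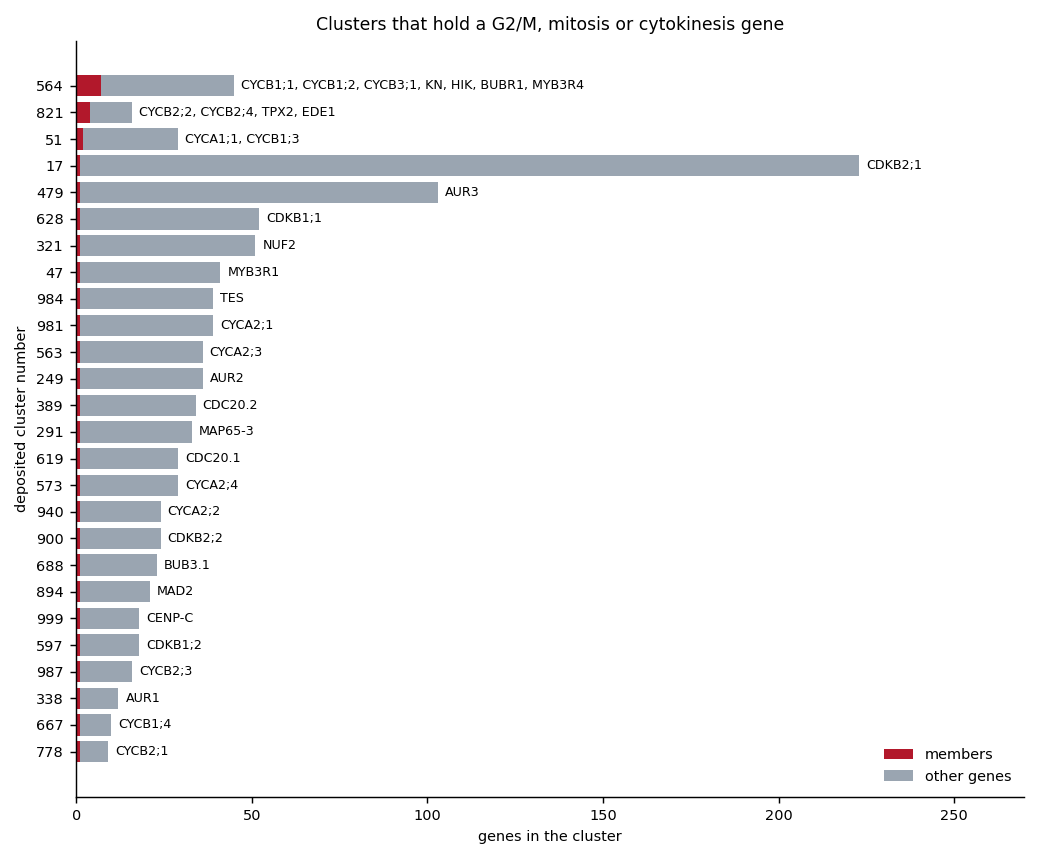
Number of genes (x axis) in each deposited cluster that holds a member (y axis, cluster number), with members in red at the left end of each bar, other genes in grey and member names beside it. Clusters 564, 821 and 51 hold 7, 4 and 2 members, and each of the other 23 clusters holds 1.

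B-type cyclins are the regulatory subunits whose accumulation and destruction mark mitosis, and 6 of the 9 shared a cluster with another member. *CYCB1;1* (AT4G37490), *CYCB1;2* (AT5G06150) and *CYCB3;1* (AT1G16330) were in cluster 564. *CYCB2;2* (AT4G35620) and *CYCB2;4* (AT1G76310) were in cluster 821, and *CYCB1;3* (AT3G11520) was in cluster 51. The remaining B-type cyclins were alone in small clusters, with 9 genes in that of *CYCB2;1* (AT2G17620, cluster 778), 10 in that of *CYCB1;4* (AT2G26760, cluster 667) and 16 in that of *CYCB2;3* (AT1G20610, cluster 987). A-type cyclins act from S phase to early mitosis and were more scattered, with 5 genes in 5 clusters. *CYCA1;1* (AT1G44110) shared cluster 51 with the B-type cyclin there, whereas *CYCA2;1* (AT5G25380, cluster 981), *CYCA2;2* (AT5G11300, cluster 940), *CYCA2;3* (AT1G15570, cluster 563) and *CYCA2;4* (AT1G80370, cluster 573) were each apart from every other member.

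The B-type CDKs, a plant class of kinases that peak around mitosis, were in 4 clusters and shared none with any cyclin of the list. *CDKB1;1* (AT3G54180) was in cluster 628 of 52 genes, *CDKB1;2* (AT2G38620) in cluster 597 of 18 genes and *CDKB2;2* (AT1G20930) in cluster 900 of 24 genes. *CDKB2;1* (AT1G76540) was in cluster 17, which with 223 genes was the largest that held a member. Only 153 of these were protein-coding genes with a promoter window, and others were pseudogenes, microRNA precursors or entries without a gene model. Levels were not analysed here, so whether genes of this cluster were near the floor was not tested.

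Among the cytokinesis genes, *KN* (AT1G08560), the syntaxin of cell plate vesicle fusion, and *HIK* (AT1G18370), a kinesin needed for phragmoplast expansion, were both in cluster 564. *TETRASPORE* (*TES*, AT3G43210), which encodes the kinesin most like HIK, was in cluster 984 of 39 genes. *MAP65-3* (AT5G51600), which encodes a protein that cross-links phragmoplast microtubules, was in cluster 291 of 33 genes. Of the spindle checkpoint genes and activators of the anaphase-promoting complex (APC/C), only *BUBR1* (AT2G33560), for a checkpoint protein, was with other members, in cluster 564. *BUB3.1* (AT3G19590) was in cluster 688, *MAD2* (AT3G25980) in cluster 894, *CDC20.1* (AT4G33270) in cluster 619 and *CDC20.2* (AT4G33260) in cluster 389.

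Of 7 genes for the spindle, kinetochore and Aurora kinases, *TPX2* (AT1G03780), for a spindle assembly factor, and *EDE1* (AT2G44190), for a microtubule-associated protein of spindle and phragmoplast, shared cluster 821 with a pair of the CYCB2 cyclins. The Aurora kinase genes *AUR1* (AT4G32830), *AUR2* (AT2G25880) and *AUR3* (AT2G45490) were in clusters 338, 249 and 479 of 12, 36 and 103 genes. The kinetochore genes *NUF2* (AT1G61000) and *CENP-C* (AT1G15660) were in clusters 321 and 999. Of the MYB3R genes themselves, *MYB3R4* (AT5G11510), known as an activator of G2/M genes, was in cluster 564 with *KN*, *HIK*, *BUBR1* and the 3 B-type cyclins there. *MYB3R1* (AT4G32730), which is known to act both as activator and as repressor, was in cluster 47 of 41 genes with no other member.

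Within the families CYCA2, CYCB1, CYCB2, CDKB1, CDKB2, AUR, CDC20 and MYB3R, 2 of 25 pairs of paralogs (8%) shared a cluster, against 4.44% of all pairs of members, namely *CYCB1;1* with *CYCB1;2* and *CYCB2;2* with *CYCB2;4*. In their longest transcripts these pairs were identical at 67.8% and 65.6% of aligned bases, within the range of 62.5% to 91.8% of the pairs that were apart, among them *CYCB2;1* and *CYCB2;2* with 79.7%. *CYCB1;2* and *CYCB1;3*, also apart, were identical at 74.3% of aligned transcript bases and at 147 of 217 aligned bases of their promoters, and the promoters of the CYCB2 genes of clusters 778 and 821 at 150 of 190 aligned bases. The closest pair was *CDC20.1* and *CDC20.2*, 619 bases apart on chromosome 4 and 91.8% identical. Of the stretches of 51 bases (the read length) in *CDC20.1*, 31.2% also occur in *CDC20.2*, so reads from these could be assigned to either gene.

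Whether reads could be shared was checked for every member in the same way. Of the 36 transcripts, 25 had no 51-base stretch in common with the longest transcript of any other gene on either strand. *KN* shared 31.0% with AT1G08550 and *AUR2* shared 35.5% with AT2G25890, which overlap them on the chromosome, and *AUR1* (16.4%), *CDKB1;2* (12.2%), *CDKB2;2* (10.6%) and *CDKB1;1* (1.58%) also overlapped a neighbour. No protocol in the sources used here says that reads kept their strand, so reads from an overlap could come from either gene. *CYCB1;2* shared 11.5% with AT1G34460 and *CYCB2;3* shared 17.2% with AT1G20590, neither of which overlaps it, and *NUF2* shared 0.238% with its neighbour AT1G61010. None of these partners outside the list was in the cluster of its member, and none of the 5 pairs of members within 100 kb of each other shared a cluster.

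Genes that joined members in the 3 shared clusters included further genes of mitosis, named here after the clusters had been seen. In cluster 564, 5 of the 38 other genes (13.2%) were annotated as kinesins or microtubule motors (AT1G72250, AT2G22610, AT3G20150, AT4G26660 and AT5G27550), against 56 of the 25847 other clustered genes (0.217%). In cluster 51 these words matched 1 of 27 genes (AT1G18550), in cluster 821 it was 0 of 12, and in the clusters that held 1 member it was 1 of 897 genes (0.111%). The words miss kinesins that the annotation describes only as P-loop proteins, such as *RSW7* (AT2G28620) of cluster 51, so the counts are lower limits. Cluster 564 also held *CCS52B* (AT5G13840), an APC/C activator, *SCL28* (AT1G63100), a GRAS transcription factor of the G2/M programme, and *3xHMG-box2* (AT4G23800), whose product binds mitotic chromosomes. Cluster 51 held *MKK6* (AT5G56580), the MAP kinase kinase of the cytokinesis pathway in which HIK acts. It also held *RSW7*, a kinesin of spindle and phragmoplast, and *CSLD5* (AT1G02730), a cellulose synthase-like gene of the cell plate. Its genes of other annotation included *TAF12* (AT3G10070) and the splicing factor gene *SAP130a* (AT3G55200). Clusters that held 1 member had cell cycle genes by annotation too, such as *CYCA1;2* (AT1G77390) with *MYB3R1*. Further cases were *BUB3.2* (AT1G49910) with *MAP65-3* and the kinetochore gene *ATZW10* (AT2G32900) with *AUR3*.

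Other lists of genes were set beside the members in the same way. The 26 clusters together held 1010 genes, or 3.9% of all clustered genes. Of 34 other genes of mitosis and cytokinesis, 4 (11.8%) were in a cluster with a member: *MKK6* and *RSW7*, the centromeric histone gene *HTR12* (AT1G01370) in cluster 628 and the gamma-tubulin gene *TUBG1* (AT3G61650) with *BUB3.1*. Of 18 regulators of cyclin-CDK complexes and the APC/C, 3 (16.7%) were, namely *CCS52B*, *SCL28* and the APC/C subunit gene *HBT* (AT2G20000), which was with *MAP65-3*. Of 22 DNA replication genes, 9 (40.9%) were, but none of these was in clusters 564, 821 or 51. Instead 8 of them were in cluster 321 with *NUF2*, among them the replicative helicase genes *MCM3* (AT5G46280), *MCM4* (AT2G16440), *MCM6* (AT5G44635) and *MCM7* (AT4G02060). The remaining gene, *POLA1* (AT5G67100), for the catalytic subunit of a replicative DNA polymerase, was in cluster 628 with *CDKB1;1*. *RBR1* (AT3G12280), the retinoblastoma-related repressor of S phase entry, was also in cluster 628, and *E2FA* (AT2G36010), an activator of S phase genes, was in cluster 47 with *MYB3R1*.

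Of 44 markers of cell types and organs, 1 (2.27%) was in a cluster with a member, against 3.9% of all clustered genes. None of 9 shoot meristem, 10 green leaf, 9 floral identity and 8 vascular genes, and none of 5 genes checked for the genotypes, shared a cluster with a member. Of 8 stomatal lineage genes 1 did, *SDD1* (AT1G04110), which was with *MAD2* in cluster 894. Their levels in the libraries were not analysed here, so their part in these profiles was not tested.

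**Figure D2:**
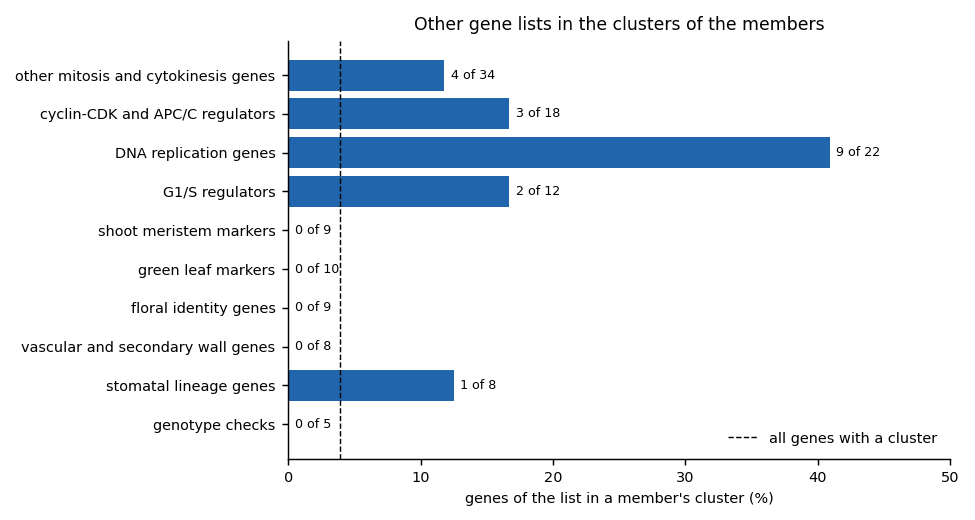
Share of each of 10 gene lists (y axis) that lay in a cluster with a member (x axis, percent), with counts beside the bars and a dashed line at 3.9%, the share of all clustered genes. The DNA replication genes stand highest at 9 of 22, and 5 lists are at 0.

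The MSA core was then counted in the 250 bases before the annotated start, on both strands. Of the 36 members, 20 (55.6%) had at least 1 core, against 4963 of 23572 protein-coding genes with a cluster (21.1%). At least 2 cores occurred in 12 members (33.3%), against 896 of all these genes (3.8%). *CYCB1;2* had 4 cores and 5 other B-type cyclins had 3 each, so the 6 members with most cores were all B-type cyclins of the CYCB1 and CYCB2 families. Base composition was close, with a median G+C content of 31.6% in the windows of members, against 31.2% in all. No test was made, since members were chosen with results known, and a match is a description of letters and not of a bound site.

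Members that shared a cluster had the core in 9 of 13 promoters (69.2%), and members alone in a cluster in 11 of 23 (47.8%). In cluster 564, 5 of the 7 members had it, and *CYCB3;1* and *BUBR1* did not. The single core of *KN* lay 7 bases before the annotated start and that of *HIK* 6 bases before it. That of *MYB3R4* lay 78 bases before it. In cluster 821, *CYCB2;2* and *TPX2* had it, with 3 and 2 cores, and *CYCB2;4* and *EDE1* had none in this window. Both members of cluster 51 had it. The remaining members without a core were the CYCA2 genes other than *CYCA2;1*, *CYCB1;4*, both CDKB1 genes, *CDKB2;1*, *CDC20.1*, *CDC20.2*, *AUR3*, *NUF2* and *MYB3R1*. In 9 members the window ran into a neighbouring gene, and 2 of these had a core. Among these 9 only *EDE1* and *MYB3R4* shared a cluster, so such windows were more frequent among members alone in a cluster. The shares of 69.2% and 47.8% thus also differ in window overlap, and their difference was not tested. Of the 27 members whose window was free of other genes, 18 (66.7%) had a core. The share in all genes with such free windows was not counted.

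**Figure D3:**
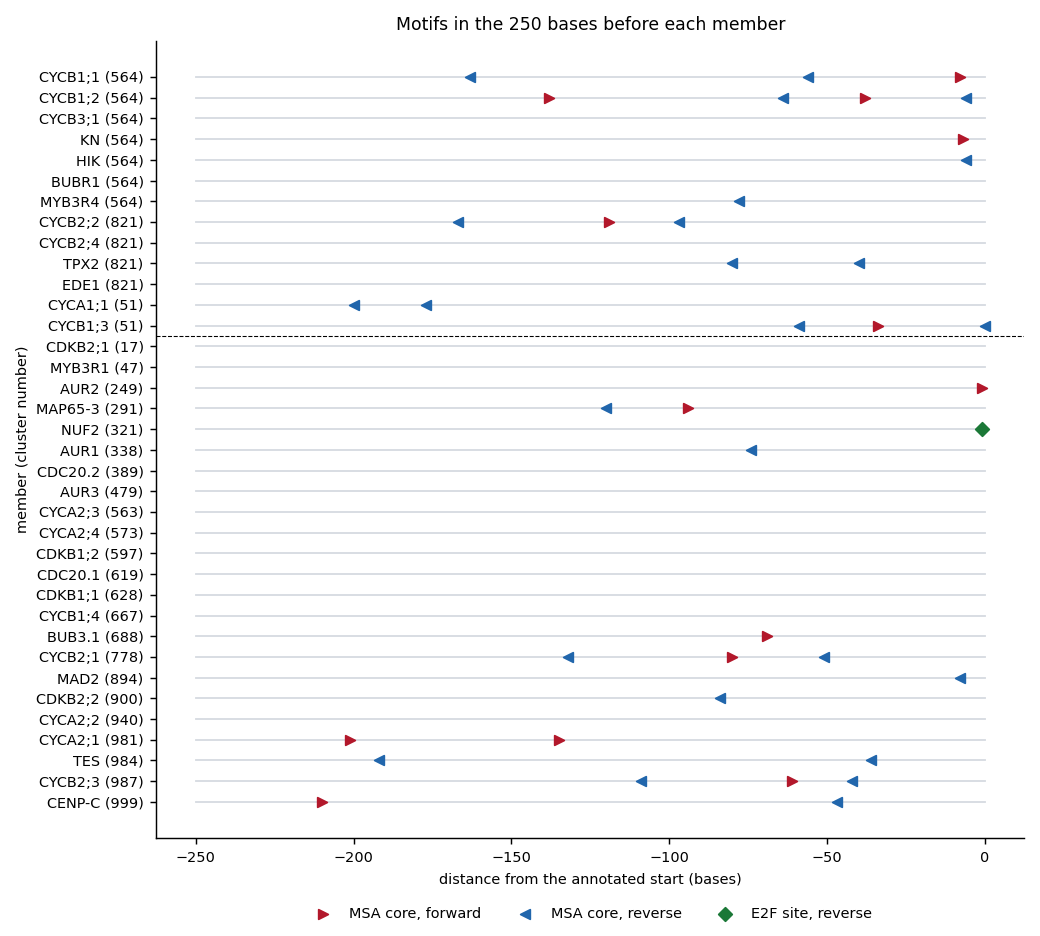
Position of MSA cores and E2F sites (x axis, bases from the annotated start) in the 250 bases before each member (y axis, cluster number in brackets), with arrowheads for the direction of a core relative to the gene. The 13 members that share a cluster stand above the dashed line and the 23 that are alone stand below it, and 16 members have no core.

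The other genes of the shared clusters were not chosen themselves, but their clusters were taken because they held several members. The core was also frequent in these genes. It occurred in 16 of the 38 other genes of cluster 564 (42.1%) and in 13 of the 27 other genes of cluster 51 (48.1%), but in only 3 of the 12 other genes of cluster 821 (25.0%). In the clusters that held 1 member, 193 of 792 other genes (24.4%) had it. Of the other mitosis and cytokinesis genes, 16 of 34 (47.1%) had a core, whichever cluster they were in. Among the 801 clusters with at least 10 promoters the highest share was 62.5%. In this order cluster 894 of *MAD2* was 2nd with 13 of 21 promoters (61.9%), cluster 51 was 6th with 15 of 29 (51.7%) and cluster 564 was 11th with 21 of 45 (46.7%), each count including the members. Cluster 338 of *AUR1* had 6 of 12 and cluster 688 of *BUB3.1* 10 of 23 (43.5%). Cluster 821 was 114th with 5 of 16 (31.2%).

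**Figure D4:**
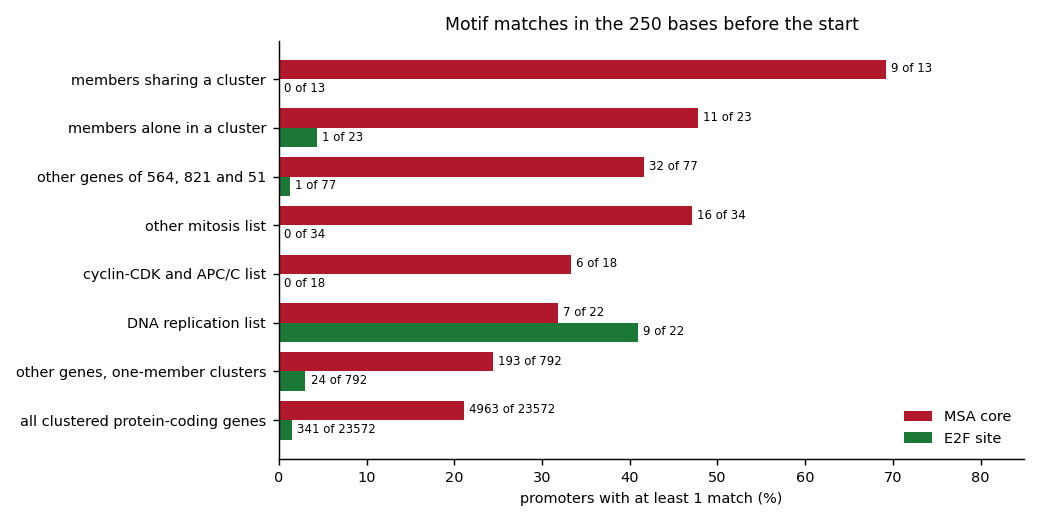
Share of genes with an MSA core (red) or an E2F site (green) in the 250 bases before the start (x axis, percent), for members and other sets of genes (y axis), with counts beside the bars. The MSA core reaches 9 of 13 in members that share a cluster and 21.1% in all clustered protein-coding genes, and the E2F site is highest in the DNA replication list.

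E2F sites, the elements of S phase genes, gave a different picture. They were counted as TTTCCCGC, TTTGGCGC, TTTCGCGC or TTTGCCGC on either strand. None of these contains AACGG or CCGTT, though matches of both kinds can share end bases. Only 1 member had one, *NUF2* (2.78% of members), against 341 of 23572 genes (1.45%). Its site lies 1 base before the annotated start, at the end of the 60 bases at chr1:22474188-22474247 (- strand), where it is shown in capitals as the reverse complement of TTTCCCGC.
NUF2: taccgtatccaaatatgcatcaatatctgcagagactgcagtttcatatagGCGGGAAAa
The cluster of *NUF2* had the highest share of E2F sites of the 801 clusters, with 11 of 51 promoters (21.6%) including its own. The DNA replication genes had one in 9 of 22 promoters (40.9%). In cluster 628 of *CDKB1;1*, 5 of the 50 other promoters had an E2F site and 19 had an MSA core, while in the other genes of clusters 564, 821 and 51 only 1 of 77 (1.30%) had an E2F site. Cluster 628 also held 11 genes annotated as histones among its 51 other genes (21.6%), against 0.209% of all other clustered genes. The 11 include *HTR12*, counted above as a mitosis gene, so the words do not pick out S phase genes alone. The paper likewise reports 11 core histone genes in cluster 628, and whether they are the same 11 was not checked. It also found terms for DNA replication and the cell cycle enriched there. From these the paper proposes that the genes of cluster 628 mark cells with high mitotic activity. *NUF2* thus lay in a cluster with DNA replication genes, and *CDKB1;1* in a cluster with histone genes and *POLA1*. Neither had an MSA core in its window, which in both ran into a neighbouring gene.

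**Figure D5:**
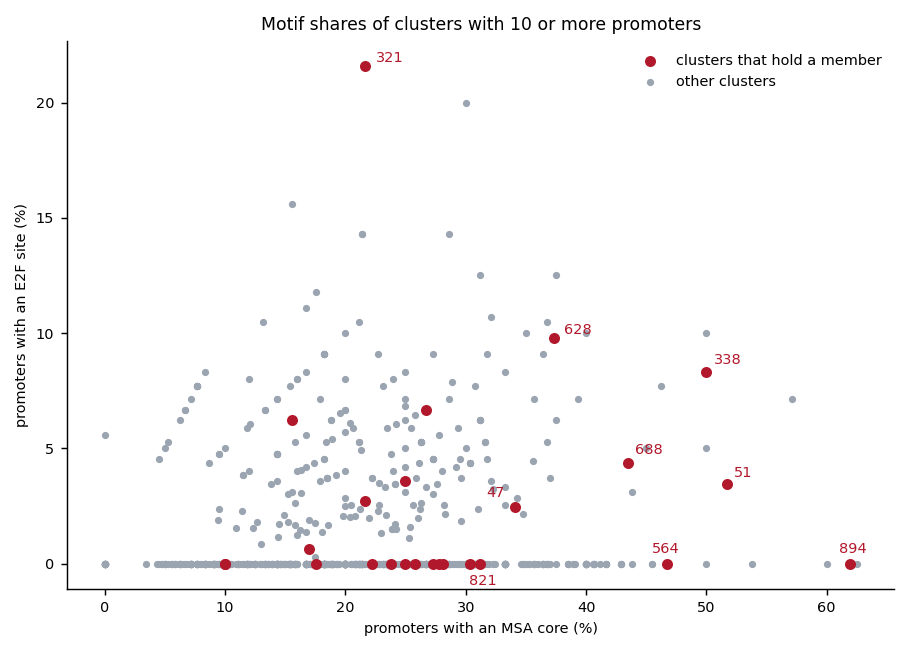
Share of promoters with an MSA core (x axis, percent) and with an E2F site (y axis, percent) in each of 801 clusters with at least 10 promoters, with clusters that hold a member in red and other clusters in grey. Cluster 321 of *NUF2* stands highest on the E2F axis at 21.6%, and clusters 894, 51 and 564 lie towards the right at 61.9%, 51.7% and 46.7%.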

How the data were processed

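RNA was sequenced from 10 libraries, 1 for each genotype and age. Per the submitters' processing notes, the authors used Trimmomatic 0.32, TopHat2 2.0.12, Bowtie2 2.1.0 and Cuffdiff 2.2.1 with TAIR10, and per the methods of the study they grouped genes by k-means into 1000 clusters with Gene Cluster and centered correlation. The deposited cluster number is a label made by the authors over all libraries and was the only measurement used. The table also holds 10 columns of values whose headings match no sample label. They were used in no step, so library depth and counting error were not analysed here, and the planned tests of levels by age and genotype were not run.

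Members were matched by locus identifier. Members and lists were chosen with earlier results of these data known. All 36 members are named. Other genes are named because they shared a cluster with a member, since the planned rule on size of change could not be applied. Genes, starts and sequences were taken from TAIR10.1, which is not the annotation release the authors counted on. The start is the outermost annotated one, and windows held 250 bases. Words of 51 bases were compared between longest transcripts, and transcripts were aligned globally with free ends. Scripts ran in Python 3.11.15 with pandas 2.3.3, Biopython 1.88 and matplotlib 3.10.9. The methods of searching MSA cores and of counting pairs in a cluster were tested on simulated data, and the other steps were not. As alternatives, wider windows, windows with the first 50 transcribed bases, the innermost annotated start, and leaving out clusters of over 100 genes were tried.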

Additional observations from a re-analysis of the deposited data

How the results depend on the processing

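Leaving out clusters of over 100 genes could not change the count of 13 members that shared a cluster. Clusters 564, 821 and 51 hold 45, 16 and 29 genes, so this alternative says nothing about how firm the count is. The count of 20 members with an MSA core was 24 with the first 50 transcribed bases added and, in windows chosen after the data had been seen, 24 with 500 bases, 28 with 1000 bases and 21 before the innermost annotated start. Over the same windows the share of all clustered protein-coding genes with a core was 25.2%, 34.7%, 56.5% and 21.4%. For the other genes of clusters 564, 821 and 51, the count of 32 of 77 was 47, 43, 53 and 36 in these windows. At 1000 bases it was 68.8% of these genes, against 56.5% of all, so the difference between them was smaller than at 250 bases (41.6% against 21.1%). Changes of pseudocount, filter, scaling and left-out libraries need the values per library and were not run. No paired analysis was possible because no test between groups was made. Clusters come from the single run of k-means that was deposited, over 10 libraries without replicates, and the stability of a number was not checked. A promoter window depends on the annotated start, which for several members lies within 10 bases of a core.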

Other observations

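Other genes of mitosis and cytokinesis gathered in clusters that held no member. Cluster 170 of 46 genes held 6 of the 34, namely *POK1* (AT3G17360) and *POK2* (AT3G19050), kinesins of the division plane, *PAKRP1L* (AT3G23670), a phragmoplast kinesin, *ATK5* (AT4G05190), a spindle kinesin, *ANP1* (AT1G09000), a MAP kinase kinase kinase, and *BMF3* (AT5G05510), a checkpoint protein. *ANP2* (AT1G54960), *ANP3* (AT3G06030) and the spindle kinesin gene *ATK1* (AT4G21270) shared cluster 206 of 48 genes, and *NDC80* (AT3G54630), whose product binds NUF2 at the kinetochore, was with *MAP65-1* (AT5G55230) in cluster 804 of 54 genes, not with *NUF2*. In all, 22 of 561 pairs (3.92%) of these 34 genes shared a cluster, against 0.226% of all pairs of clustered genes. An MSA core occurred in 16 of 46 promoters of cluster 170 (34.8%) and in 7 of 48 of cluster 206 (14.6%).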
